A study of Mus musculus with 6 samples.

Results

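The 10 genes described here encode the MCM helicase and the proteins that load and start it at replication origins: Mcm2, Mcm3, Mcm4, Mcm5, Mcm6, Mcm7, Mcm10, Cdc6, Cdt1 and Cdc45. They were taken from the count table by symbol, and the list was drawn up with earlier results of these data known. All 10 symbols were found, each on 1 row, among 26027 genes. RNA came from Lin-/cKit+/eYFP+ cells, labelled as immature multipotent blood progenitors, sorted from bone marrow of C57BL/6 mice. Every mouse carried hScl-CreERT, a tamoxifen-inducible Cre named for regulatory sequence of Scl, a gene active in stem and progenitor cells, and R26eYFP, a reporter that marks cells in which Cre has acted, and every mouse had been given tamoxifen. The groups were 3 libraries of Srsf2 P95H/+ mice and 3 of Srsf2 +/+ (wild-type) mice. P95H is a substitution in the splicing factor SRSF2 that recurs in myeloid disease. Wild-type replicate 1 was a female of 54 weeks, wild-type replicates 2 and 3 were males of 32 weeks, P95H/+ replicates 1 and 2 were females of 32 weeks and P95H/+ replicate 3 was a male of 32 weeks. The labels do not say that each library is a separate mouse. If some libraries share a mouse, the p-values measure only the spread between libraries.

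Origins of replication are licensed in G1. The origin recognition complex and CDC6 bind the origin, and CDT1 brings the hexamer of MCM2 to MCM7, so that rings of the hexamer are closed around DNA in an inactive form. At the start of S phase CDC45 and the GINS complex join the hexamer to form the active helicase, and MCM10 takes part in its activation. Geminin, encoded by Gmnn, binds CDT1 and prevents a second round of loading, and CDT1 is also destroyed in S phase. Transcription of many of these genes is driven by E2F factors as cells leave G1, so their transcripts are widely used as a sign of proliferation in stem and progenitor cells.

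Promoter sequences of 9 of the 10 genes were at hand from RefSeq (GRCm38.p6, the assembly that mm10 stands for), each 300 bases long with 250 bases before the start of transcription and 50 after it. The sequence of Mcm4 was not used here. The E2F spellings TTTGGCGC, TTTGCCGC, TTTCGCGC and TTTCCCGC were searched on both strands. At least 1 of them was present in 6 of the 9 genes (Mcm3, Mcm5, Mcm6, Mcm7, Cdc6 and Cdt1), against 3.29% of 17491 protein-coding genes with a promoter in the same table. Those of 4 genes are printed, because these genes come up again below. Mcm5 and Cdt1 were high in both replicate 3 libraries, and Mcm6 was low in that of P95H/+. Mcm7 is printed for its share of the hexamer transcripts, which is described below with its limits. That share was singled out after its values were seen, and the CPM of Mcm7 overlapped between genotypes. Each sequence is written 5′ to 3′ on the strand of its gene, and capitals mark the E2F spellings on either strand. In Mcm5 and in Mcm6, spellings on opposite strands overlap. A match describes letters in the window and is not evidence of binding.
Mcm5 (chr8:75109259-75109558, plus strand): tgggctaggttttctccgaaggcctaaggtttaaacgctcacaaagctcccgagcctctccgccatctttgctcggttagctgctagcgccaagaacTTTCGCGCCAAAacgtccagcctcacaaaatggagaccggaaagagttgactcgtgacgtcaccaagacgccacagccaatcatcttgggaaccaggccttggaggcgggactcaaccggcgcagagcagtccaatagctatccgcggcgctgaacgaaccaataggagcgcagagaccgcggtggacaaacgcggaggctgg
Mcm6 (chr1:128359656-128359955, minus strand): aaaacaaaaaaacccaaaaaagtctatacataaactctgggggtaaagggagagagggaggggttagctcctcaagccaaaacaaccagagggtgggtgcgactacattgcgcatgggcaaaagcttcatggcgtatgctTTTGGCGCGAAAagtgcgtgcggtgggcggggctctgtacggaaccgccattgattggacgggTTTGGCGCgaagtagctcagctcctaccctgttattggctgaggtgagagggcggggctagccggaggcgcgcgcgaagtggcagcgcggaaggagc
Mcm7 (chr5:138171834-138172133, minus strand): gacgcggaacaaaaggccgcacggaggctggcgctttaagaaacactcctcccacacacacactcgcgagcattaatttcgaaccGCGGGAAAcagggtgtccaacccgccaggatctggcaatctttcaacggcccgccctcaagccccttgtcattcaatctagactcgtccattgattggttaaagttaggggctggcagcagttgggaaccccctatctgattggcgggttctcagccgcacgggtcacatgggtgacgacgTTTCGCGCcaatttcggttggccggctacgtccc
Cdt1 (chr8:122567765-122568064, plus strand): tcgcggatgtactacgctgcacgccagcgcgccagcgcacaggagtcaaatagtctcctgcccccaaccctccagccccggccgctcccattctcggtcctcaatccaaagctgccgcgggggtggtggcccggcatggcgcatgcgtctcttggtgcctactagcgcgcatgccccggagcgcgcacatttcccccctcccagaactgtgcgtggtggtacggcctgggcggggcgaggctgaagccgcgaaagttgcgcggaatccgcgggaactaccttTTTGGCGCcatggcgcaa

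Library totals ran from 10747941 counts in P95H/+ replicate 3 to 23010510 counts in wild-type replicate 1. Wild-type replicate 3 was the next smallest, at 16842751 counts. Srsf2 itself lay between 315 and 343 CPM in all 6 libraries, where CPM is the count scaled by the library total. This level does not check the genotype labels, since a substitution need not change it. The progenitor marker Kit, on which the cells were sorted, was at 476 to 548 CPM. Of the same marker list, Procr was at 1.98 to 4.69 CPM and Ly6a at 1.77 to 4.91 CPM. Of the 16 T, NK and B cell markers, 5 (Cd3e, Cd3g, Cd8a, Trac and Trbc2) stayed below 1 CPM in every library, as did 5 of 12 stroma and endothelium markers (Col1a1, Col3a1, Lepr, Pdgfra and Cdh5). Others of these lists were present, such as Igkc at 32.2 to 92.2 CPM and Vcam1 at 18.5 to 98.2 CPM. Summed levels were 304 to 401 CPM for the T, NK and B cell list and 217 to 250.1 CPM for the stroma list. The replicate 3 libraries deviated from the mean of replicates 1 and 2 along the GC content of transcripts. The median log2 deviation of genes with up to 45% GC was -0.61 (wild type) and -0.78 (P95H/+), and that of genes above 55% was 0.47 and 0.76. Results are therefore also given for replicates 1 and 2 alone and after a GC correction.

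The 10 genes were expressed at high depth, with 772 to 14130 counts per gene and library. Poisson counting error was thus at most 3.6% of any value, and the spread over all libraries together was larger. Within P95H/+ alone the SD of Mcm7, Mcm10 and Cdc6 was below 3.6% of the mean. Together the 10 genes held 0.272% to 0.354% of a library's counts. None of the 10 genes differed between the genotypes in edgeR's quasi-likelihood test, and all of their ranges overlapped between P95H/+ and wild type. In the background, 0% of 17144 genes passed this test at an adjusted p of 0.05, 2.11% had an unadjusted p under 0.05 (none of the 10 genes did), and 7.84% had groups that did not overlap. DESeq2 called 0.0467% of 17130 genes and limma voom with sample weights 0.566% of 17144, and none of the 10 genes was among them.

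Each gene is protein coding, and its span in mm10 (GENCODE M21) is given where its values are. The hexamer genes come first. Mcm2 (chr6:88883474-88898780, minus strand), whose product carries a histone-binding region, was measured at 316, 360.3 and 426 CPM in wild type (here and below in the order of replicates 1, 2, 3) and at 372, 359.7 and 513 CPM in P95H/+. Mcm5 (chr8:75109569-75128439, plus strand), the partner of MCM2 at the gate of the ring through which DNA enters, stood at 359, 409 and 615 CPM in wild type and at 421, 417 and 519.5 CPM in P95H/+. Both genes were highest in the replicate 3 libraries of each genotype and lowest in wild-type replicate 1, and the genotypes overlapped. Mcm3 (chr1:20802968-20820312, minus strand), which sits next to MCM5 and contacts ORC and CDC6 during loading, stood at 406, 451 and 537 CPM in wild type and at 468, 456 and 495 CPM in P95H/+. Mcm7 (chr5:138164583-138172422, minus strand), whose introns carry the Mir106b, Mir93 and Mir25 genes, stood at 397, 439 and 509 CPM in wild type and at 484, 464 and 480.2 CPM in P95H/+. For Mcm3 and Mcm7 the 3 P95H/+ values lay close together, between wild-type replicates 2 and 3. Mcm7 is overlapped on the opposite strand by Ap4m1 and Cops6, and whether the counting used strand is not given in the sources used here.

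Mcm4 and Mcm6 form, with MCM7, the core of the ring that unwinds DNA in isolation. Mcm4 (chr16:15623897-15637400, minus strand) stood at 303, 318 and 278 CPM in wild type and at 349, 320.0 and 238 CPM in P95H/+. Mcm6 (chr1:128331590-128359664, minus strand) stood at 563, 628 and 623 CPM in wild type and at 622, 625 and 473 CPM in P95H/+. These genes went the other way from Mcm2 and Mcm5 in P95H/+ replicate 3, which held the lowest value of the 6 libraries for both.

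**Figure D1:**
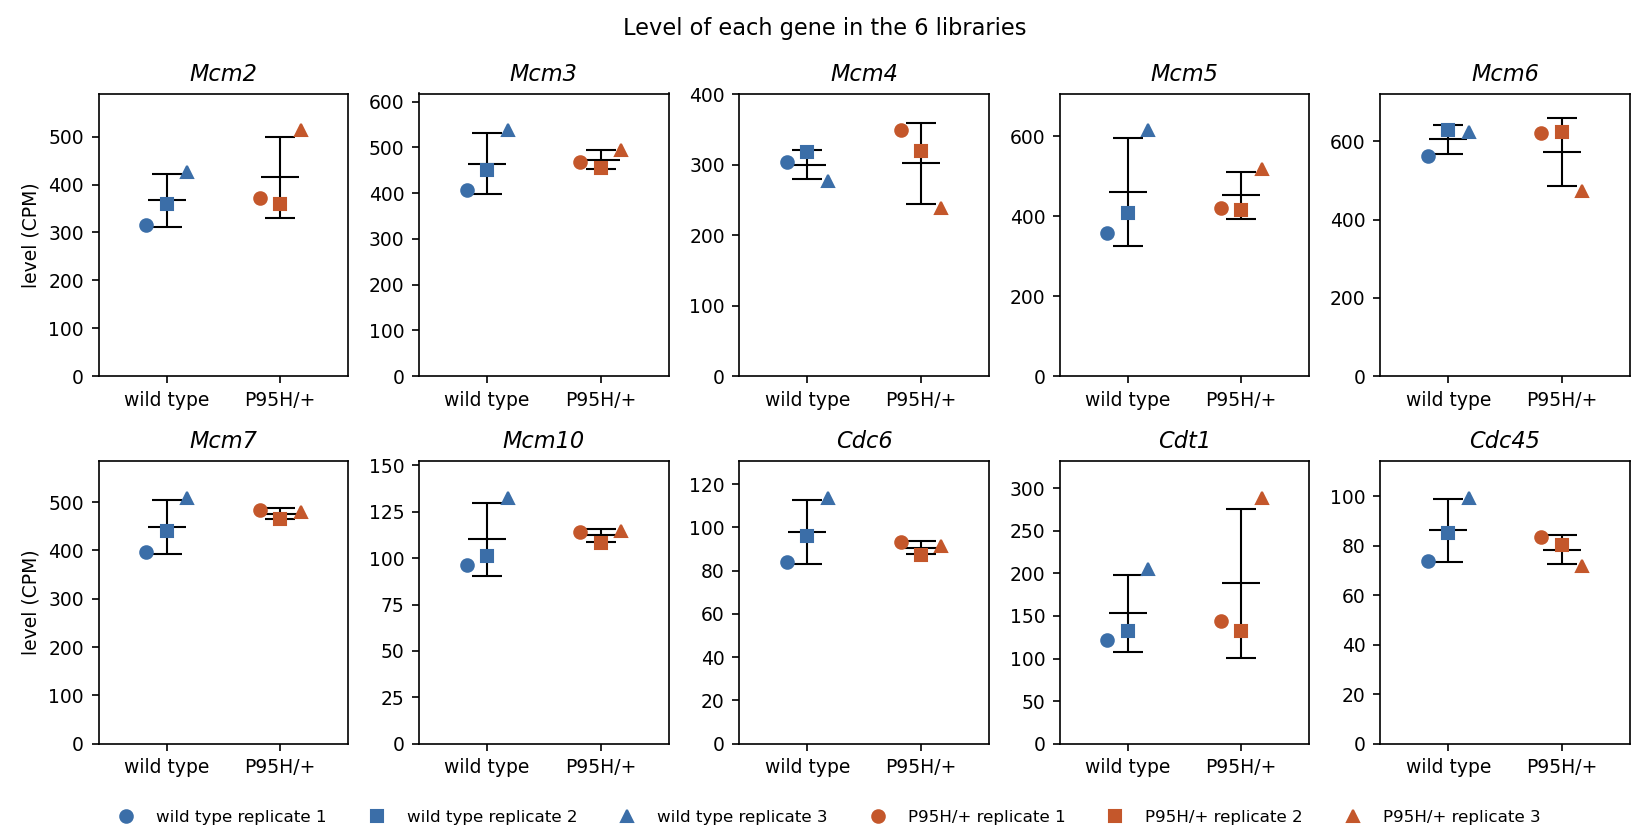
Level of each of the 10 genes in CPM (vertical axis, from 0) in the 3 wild-type and 3 P95H/+ libraries, where each point is 1 library and the bars give mean and SD. The genotypes overlap in every panel, and Cdt1 has its highest value, 289 CPM, in P95H/+ replicate 3.

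The loading factors follow. Cdc6 (chr11:98907801-98923940, plus strand), the ATPase that joins the origin recognition complex, stood at 84.1, 96.1 and 114 CPM in wild type and at 93.4, 87.2 and 91.2 CPM in P95H/+, all 3 within the wild-type range. Cdt1 (chr8:122568015-122573554, plus strand), which carries the hexamer to the origin, stood at 122, 132 and 205 CPM in wild type and at 144, 132 and 289 CPM in P95H/+. Cdt1 varied most of the 10 genes, with a 2.37-fold range over the 6 libraries, and only the replicate 3 libraries lay above 144 CPM. Gm20388 is annotated on the same strand across Cdt1, so that reads could be shared between them.

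The activators come last. Mcm10 (chr2:4989714-5012791, minus strand), which takes part in starting the loaded helicase, stood at 96.5, 101 and 133 CPM in wild type and at 114, 108 and 114 CPM in P95H/+, means of 110.1 ± 19.5 and 112 ± 3.34 CPM (SD, n = 3 each), with the P95H/+ values inside the wild-type range. Cdc45 (chr16:18780447-18811987, minus strand), a subunit of the active helicase, stood at 74.1, 85.2 and 99.4 CPM in wild type and at 83.4, 80.3 and 71.8 CPM in P95H/+. Its lowest value was that of P95H/+ replicate 3, and Ufd1 overlaps it on the opposite strand.

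Fitted to all 6 libraries, the 10 genes had log2 fold changes of P95H/+ against wild type from -0.06 for Cdc45 to 0.39 for Cdt1. Of these values 7 were positive and 3 negative, with a median of 0.09, beside a median of 0.02 over all tested genes. The largest was Cdt1 at 0.39 (SE 0.37), from means of 188 ± 87.3 (P95H/+) and 153 ± 45.3 CPM (wild type; SD, n = 3 each), and it turned to -0.09 without P95H/+ replicate 3. Mcm2 followed at 0.26 (SE 0.23), from means of 415 ± 85.2 and 368 ± 55.4 CPM, and fell to 0.05 without P95H/+ replicate 3. Mcm7 was at 0.16 (SE 0.18), Mcm10 at 0.11 (SE 0.20), Mcm3 at 0.10 (SE 0.19) and Mcm4 at 0.08 (SE 0.21). Mcm5 was at 0.05 (SE 0.25), a sign that turned to -0.03 with scaling by library totals alone. Mcm6 at -0.01 (SE 0.19), Cdc6 at -0.04 (SE 0.19) and Cdc45 at -0.06 (SE 0.19) were negative, and Mcm6 turned to 0.02 with the size factors of DESeq2. In edgeR's test the adjusted p was 1 for each of the 10 genes.

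The intervals say how large a difference these libraries leave room for. The 95% intervals of all 10 genes included no difference. For Mcm6 the interval ran from a 0.733-fold to a 1.35-fold level in P95H/+, for Cdc6 from 0.714-fold to 1.33-fold and for Cdc45 from 0.703-fold to 1.31-fold. Cdt1 was the least precise, from 0.714-fold to 2.40-fold. The upper bounds of Mcm2 and Mcm5 were 1.75-fold and 1.57-fold. Leaving out Cdt1, Mcm2 and Mcm5, which had the highest upper bounds, no upper bound was above 1.51-fold. The lowest lower bound of the 10 genes was 0.687-fold, for Mcm5.

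**Figure D2:**
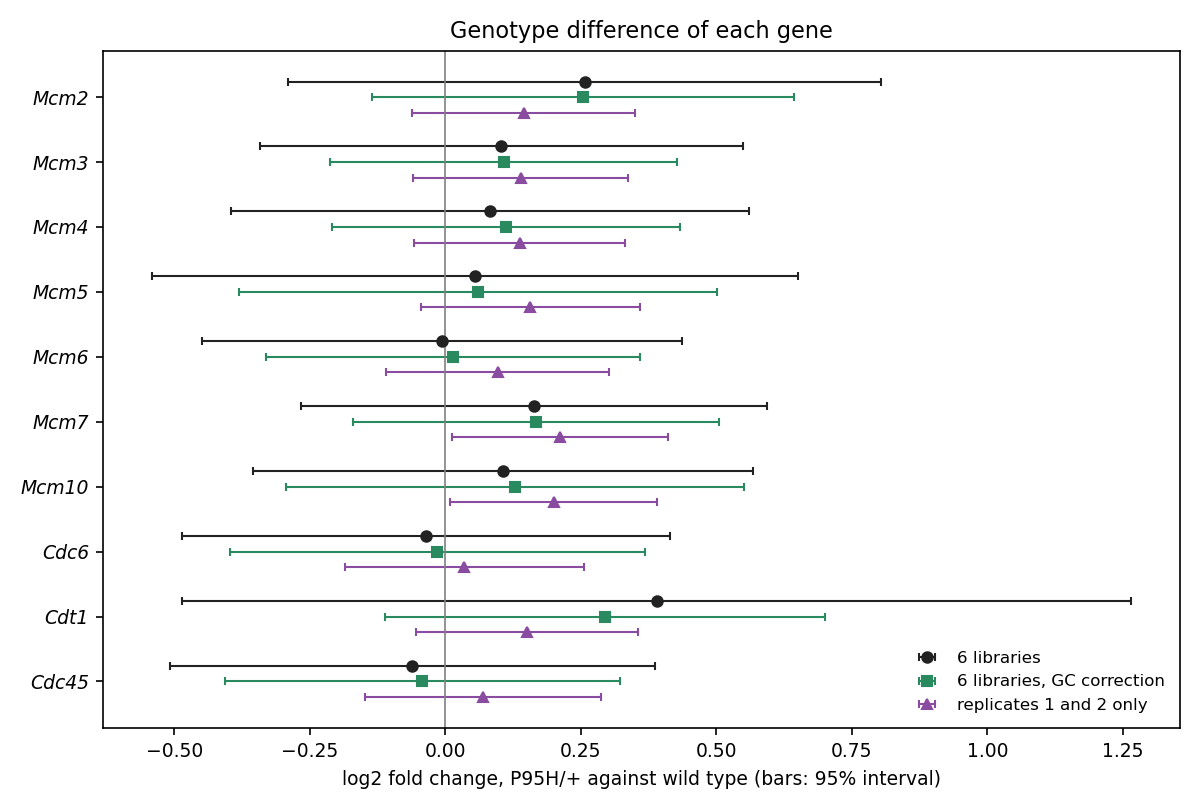
Log2 fold change of P95H/+ against wild type (horizontal axis) for each gene, fitted to 6 libraries, to 6 libraries with GC correction and to replicates 1 and 2 alone, with bars for 95% intervals. With 6 libraries every interval includes 0, and with replicates 1 and 2 alone the points lie between 0.03 and 0.21 with shorter bars.

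With replicates 1 and 2 alone, 2 libraries against 2, all 10 log2 fold changes were positive, from 0.03 for Cdc6 to 0.21 for Mcm7, with a median of 0.14. Their SE was 0.09 to 0.10. Again 0 of the 10 genes passed edgeR's test over all genes, where 0.829% of 17371 genes did. Mcm7 at 0.21 (edgeR adjusted p 0.297) and Mcm10 at 0.20 (edgeR adjusted p 0.304) had an unadjusted p under 0.05, a level reached by 15.6% of all genes tested. In CPM, 6 of the 10 genes (Mcm3, Mcm4, Mcm5, Mcm7, Mcm10 and Cdt1) were higher in both P95H/+ libraries than in both wild-type libraries, against 19.9% of genes with that order and 48.1% of genes without overlap in either direction.

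Wild-type replicate 1 held the lowest CPM of these 4 libraries for all 10 genes, which was so for 24.5% of tested genes. There the 10 genes summed to 2721.5 CPM, against 3020.9 CPM in wild-type replicate 2 and 3151.8 and 3049 CPM in P95H/+ replicates 1 and 2. P95H/+ replicate 2 and wild-type replicate 2 were nearly alike, with 6 genes higher in the former and a median log2 difference of 0.0041, between -0.14 and 0.10. P95H/+ replicate 1 was highest of the 4 libraries for 7 of the 10 genes, which was so for 22.7% of tested genes. All other libraries came from mice of 32 weeks and wild-type replicate 1 from one of 54 weeks, so that its age and the library itself cannot be told apart. The summed level of the stem and multipotent progenitor list was highest in the same library, at 1719.5 CPM against 1242.3 to 1563.8 CPM in the other 5, and its part in the result was not tested. Without wild-type replicate 1 the median of the 10 genes in the fit to the remaining 5 libraries was 0.01.

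In the replicate 3 libraries the 10 genes were compared with genes of like GC content. Cdt1, with the most GC at 57.8%, was higher than the mean of replicates 1 and 2 by a log2 difference of 0.58 (wild type) and 1.22 (P95H/+), where the medians of all genes above 55% were 0.47 and 0.76. Mcm4, with the least at 45.5%, was at -0.27 and -0.35, and Mcm6, at 47.3%, was at -0.02 and -0.28, where the medians of genes of 45% to 50% were -0.13 and -0.19. Mcm2 and Mcm5, at 51.7% and 51.9%, differed between these libraries. Mcm2 was at 0.22 (wild type) and 0.63 (P95H/+), and Mcm5 at 0.56 and 0.46, against medians of 0.20 and 0.30 for genes of 50% to 55%. Mcm3 (0.22 and 0.24) and Mcm7 (0.14 and 0.20) stayed near those medians. Mcm10, Cdc6 and Cdc45, at 48.7% to 49.3%, lay above the medians of genes of 45% to 50%, at 0.28, 0.28 and 0.25 in wild-type and 0.21, 0.11 and -0.08 in P95H/+ replicate 3. In wild type these 3 genes were also above Mcm3 and Mcm7, which have more GC.

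**Figure D3:**
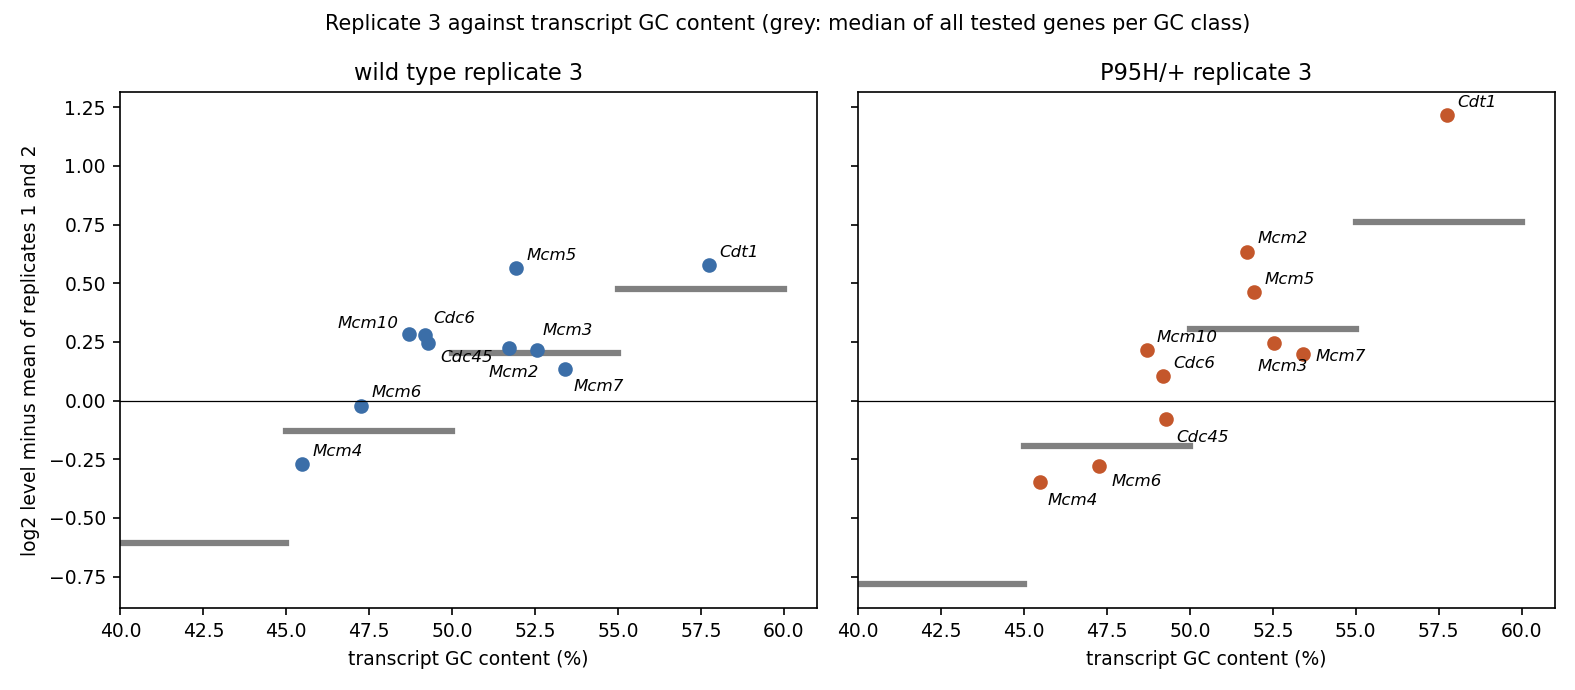
Log2 level of each gene in replicate 3 minus the mean of replicates 1 and 2 of both genotypes (vertical axis) against GC content of its longest transcript (horizontal axis, %), with grey lines for the median of all tested genes in each GC class; the outer classes are open and are drawn to the edge of the plotted range. In both libraries Mcm4, at the left, is the lowest of the 10 genes (-0.27 and -0.35) and Cdt1, at the right, the highest (0.58 and 1.22).

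With the GC trend removed from every library, Cdt1 stood at 0.43 in P95H/+ replicate 3 and Mcm2 at 0.37, as log2 deviations from their means over the 6 libraries, against 0.11 or less for Cdt1 and 0.07 or less for Mcm2 in the other 5. Mcm4 was then at 0.07 and 0.06 in the replicate 3 libraries of P95H/+ and wild type. After the correction wild-type replicate 1 was the lowest of the 6 libraries for all 10 genes, from -0.33 for Mcm5 to -0.18 for Mcm7. The share of all tested genes that were lowest in this library after the correction is not given here, so the count has no background. The fit with this correction gave log2 fold changes from -0.04 for Cdc45 to 0.29 for Cdt1 with a median of 0.11, 0.03 over all genes, and 0 of the 10 genes passed edgeR's test. The interval of Cdt1 narrowed to between 0.925-fold and 1.63-fold.

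The proteins MCM2 to MCM7 occupy 1 place each in the ring, so the proportions of their transcripts were compared per length. Per kilobase of annotated exon, levels over the 6 libraries were highest for Mcm6 at 126 ± 13.3 CPM per kb and Mcm3 at 125 ± 11.8 CPM per kb (SD, n = 6). Mcm5 (114 ± 23.4), Mcm7 (104 ± 8.86), Mcm4 (83.9 ± 10.8) and Mcm2 (56.3 ± 9.96) followed in CPM per kb. Outside the ring, Cdt1 was at 54.3 ± 20.7, Cdc45 at 23.5 ± 2.81, Cdc6 at 18.03 ± 1.99 and Mcm10 at 14.5 ± 1.64 CPM per kb. The ranges over libraries overlapped between all neighbours in this order except Cdt1 (38.8 to 91.9) and Cdc45 (20.5 to 28.3). Read within each library, Mcm7 was always above Mcm4, Cdt1 above Cdc45, Cdc45 above Cdc6 and Cdc6 above Mcm10. The other neighbours did not keep their order in every library. The order depends on the length used: with the longest transcript, a choice made after the data were seen, Mcm7 led at 156 CPM per kb and Mcm2 rose to 112 CPM per kb, since its annotated exons cover 6.96 kb and its longest transcript 3.49 kb.

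A share of the ring's transcripts depends on the lengths used, so it was computed with both. With exon lengths, the share of Mcm7 in the summed per-length level of the 6 ring genes was 16.7%, 16.6% and 16.8% in the wild-type libraries and 17.5%, 17.3% and 17.7% in the P95H/+ libraries. It was the 1 of the 6 shares that did not overlap between genotypes, including the replicate 3 libraries. Of all tested genes, 7.84% had CPM that did not overlap in either direction. That rate is for CPM of single genes, and no such rate was computed for shares. An order of 3 against 3 libraries cannot give a two-sided p below 0.1, and 6 shares were looked at. With lengths of the longest transcript, which rescale the same counts, the share of Mcm7 was 20.1% to 20.2% against 20.7% to 21.2%. The share was singled out after its values were seen, and the difference was not tested.

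**Figure D4:**
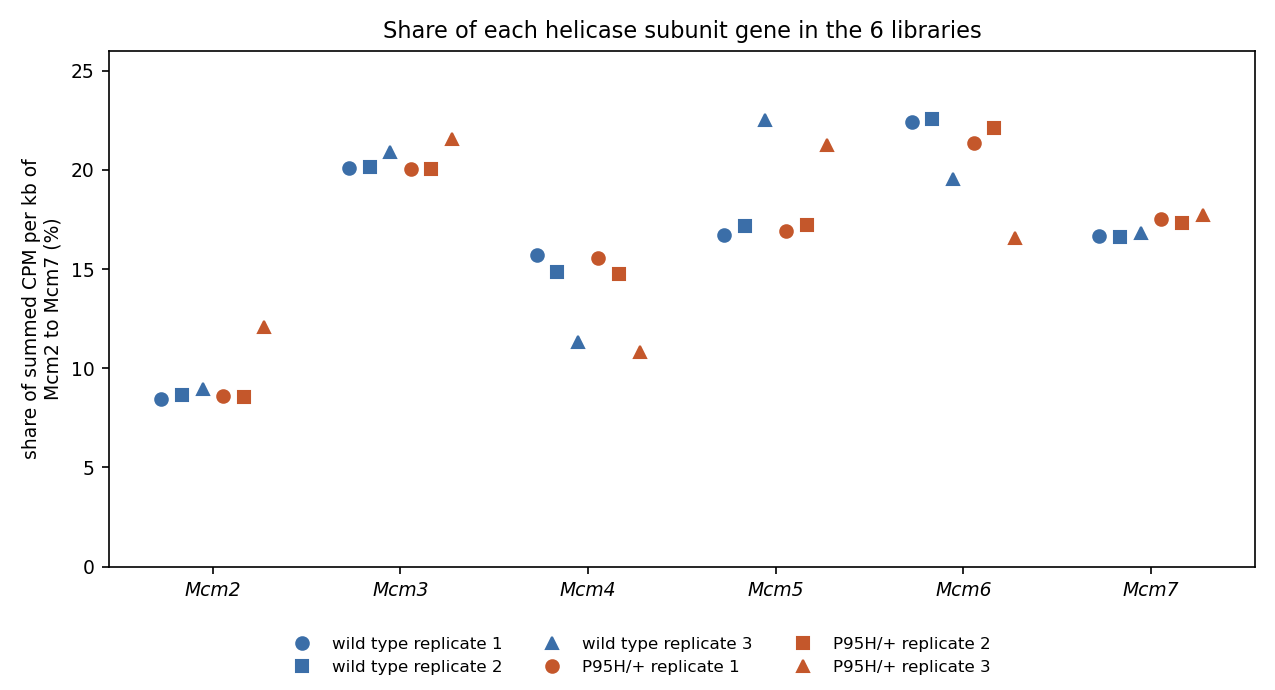
Share of each of Mcm2 to Mcm7 in their summed CPM per kb of exon (vertical axis, %, from 0), where each point is 1 library. The shares of Mcm7 lie between 16.6% and 16.8% in wild type and between 17.3% and 17.7% in P95H/+, while Mcm4, Mcm5 and Mcm6 are set apart in the replicate 3 libraries of both genotypes.

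The other shares moved with the replicate 3 libraries. Mcm5 took 16.7% to 17.2% in the other 4 libraries and 22.5% (wild type) and 21.3% (P95H/+) in replicate 3. Mcm6 took 21.4% to 22.5% against 19.5% and 16.6%, and Mcm4 14.7% to 15.7% against 11.3% and 10.8%. The share of Mcm2 was raised in P95H/+ replicate 3 alone, at 12.1% against 8.44% to 8.95% in the other 5 libraries. That of Mcm3 stayed between 20.02% and 21.6%.

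Other genes of the pathway are read against the same background, in which 0% of all genes were called, so that 0 calls says nothing particular about them. Among all tested genes 9097 of 17144 had positive values. Of 19 genes of origin recognition, loading control and other MCM proteins, 0 passed edgeR's test in either direction, 16 had positive values, and the median log2 fold change was 0.07. That median turned to -0.06 without wild-type replicate 3, to -0.02 without P95H/+ replicate 1, to -0.04 with sex in the model and to -3e-04 with library totals alone. The 2 with the smallest p were Cul4a, a scaffold of the ligase that marks CDT1 for destruction, at 0.15 (SE 0.17), and Fzr1, an activator of the anaphase-promoting complex, at 0.32 (SE 0.42). Gmnn was at 59.6, 61.8 and 26.6 CPM in wild type and at 71.8, 57.9 and 22.0 CPM in P95H/+. It was low in the replicate 3 libraries, in which Cdt1 was high. The GC content of its transcript is 49.8%. The ratio of Cdt1 to Gmnn in CPM was 2.00 to 2.28 in the other 4 libraries, and 7.70 (wild type) and 13.1 (P95H/+) in replicate 3. Of 13 genes of origin firing, 0 passed the test, with a median of 0.06 that turned to -0.06 without wild-type replicate 3, -0.07 without P95H/+ replicate 1, -0.04 with sex in the model and -0.0048 with library totals alone. Ticrr, which helps CDC45 to join, was at 0.21 (SE 0.22) and Gins2, a subunit of GINS, at 0.14 (SE 0.18).

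Genes that act after origins fire, or around S phase, gave 0 calls as well. The 28 genes of the replication fork had a median of 0.15, with 22 positive, which fell to 0.03 without wild-type replicate 3 and 0.05 without P95H/+ replicate 1, and Lig1, the ligase of Okazaki fragments, and Pole, the catalytic subunit of leading-strand polymerase epsilon, were at 0.29 (SE 0.18) and 0.30 (SE 0.23). All 3 P95H/+ values of Lig1 lay above the wild-type values, an order held by 1.91% of all genes tested, and 7.84% did not overlap in either direction. Lig1 was named for its small p, so this order adds no separate support. Of the genes named by the same rule from all lists, Col1a2 held this order too, and Trbc1, Procr and Ly6a the reverse. The 29 genes of S phase entry and nucleotide supply had a median of 0.12, and of 0.05 without P95H/+ replicate 1. Ccnd1, a D-type cyclin, had the smallest p of this list, at -0.61 (SE 0.33), with 30.7, 40.5 and 41.4 CPM in wild type against 15.7, 20.5 and 33.6 CPM in P95H/+, and E2f8, a repressor among E2F factors, was at 0.31 (SE 0.23). In the G2 and M phase list 19 of 20 genes were positive, with a median of 0.22. Without wild-type replicate 3 this became 12 of 20 genes and 0.03, without P95H/+ replicate 1 it became 15 and 0.08, and with sex in the model 13 and 0.07. The smallest p were those of the mitotic kinases Plk1 at 0.50 (SE 0.29) and Bub1b at 0.27 (SE 0.19). The summed level of the whole G2 and M phase list was 4404.3 to 4863.9 CPM in replicates 1 and 2, and 2312.5 (wild type) and 3325.5 CPM (P95H/+) in replicate 3. The 10 licensing genes summed to 3538.5 and 3285 CPM in those replicate 3 libraries, above the other 4, although Mcm4 and Mcm6 were lowest in P95H/+ replicate 3. Neither sum was corrected for the GC trend of the replicate 3 libraries, and the part of that trend in these sums was not tested.

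The 6 genes with the profile nearest to the mean of the 10 genes, among 9158 others of at least 10 CPM, were Gpat4, Gle1, Zmynd19, Aurkaip1, Rfc5 and Rpl10a. Nearness was the root mean square difference of centred log2 CPM over the 6 libraries, 0.013 for Gpat4 and 0.030 for Rpl10a against a median of 0.297 over all candidates. Rfc5, a subunit of the clamp loader at the replication fork, was at 0.030. Among the 10 genes Mcm3 lay nearest to their mean (0.0081) and Cdt1 farthest (0.363), and Mcm4 and Mcm6 were each other's nearest member, as were Cdc6 and Cdc45 and as were Mcm3 and Mcm7. Libraries here are whole sorted populations, so that fewer cycling cells and less RNA of these genes per cell cannot be told apart. Committed lineage markers also varied between the libraries, with summed levels of 8404.7 to 10757 CPM in replicates 1 and 2 against 13088 (wild type) and 12052 CPM (P95H/+) in replicate 3, and their part in the levels of the 10 genes was not tested. Of that list, Klf1 and Gata1, factors of erythroid cells, were at 0.73 (SE 0.59) and 0.57 (SE 0.47). Of the stem cell list, which had a median of -0.34 (-0.10 without wild-type replicate 1) with 0 of 13 genes past edgeR's test, Procr was at -0.52 (SE 0.29) and Ly6a at -0.50 (SE 0.32). Trbc1 at -1.56 (SE 0.43) and Igkc at 0.81 (SE 0.36) of the T, NK and B cell list, and Col1a2 at 1.85 (SE 0.50) and Vcam1 at 0.92 (SE 0.55) of the stroma list, did not pass either.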

How the data were processed

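The deposited table holds raw counts per gene of 6 libraries made from ribosome-depleted total RNA with a stranded kit, per the labels. The authors' CPM were counts scaled to the library total, checked against the counts (largest difference 5e-04). The submitters' processing notes name the build mm10, the aligner STAR (2.5.3a), featureCounts, Subread (1.5.1), Picard (1.96), Trim Galore, cutadapt, limma and edgeR. Their settings are not given in the sources used here.

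Genotypes were compared over all genes with edgeR 4.0.16 in R 4.3.3 (filterByExpr, TMM, robust quasi-likelihood F test, two-sided, Benjamini-Hochberg over 17144 genes, threshold 0.05). SE follow from the F statistic, and 95% intervals from SE and the total degrees of freedom. Log2 CPM used a prior count of 2. Alternatives used DESeq2 1.42.0, limma 3.58.1 voom with and without sample weights, other scalings and filters, sex, the replicate number as a block, and fewer libraries. The GC correction is an offset from a spline with 4 degrees of freedom on GC content of the longest transcript. Exon lengths, GC and overlaps came from GENCODE M21 for mm10. The fit was tested on simulated data.

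The main fit did not pair the libraries, since the replicate numbers are not said to mark a litter, batch or day. They served as a block in alternatives only. Deviations from group means correlated across genes by 0.372, 0.348 and 0.613 for numbers 1, 2 and 3. For numbers 1 and 2 the crossed pairs correlated more, so these values do not back a pairing by number there. They were 0.463 for wild-type replicate 1 with P95H/+ replicate 2 and 0.386 for wild-type replicate 2 with P95H/+ replicate 1. The 10 genes and all lists were chosen with earlier results of these data known. Named genes are the 10, Srsf2, the 2 of smallest p in each list and the 6 nearest profiles. Kit, Gmnn and marker genes under 1 CPM were named outside that rule. The second promoter that RefSeq lists for Mcm7 held 0 matches.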

Additional observations from a re-analysis of the deposited data

How the results depend on the processing

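In no setting did any of the 10 genes pass the threshold, with adjusted p between 0.213 and 1 over 19 other settings (edgeR, DESeq2 and limma voom), and the 5 lists of other replication and cell cycle genes also had 0 calls in each. Among the marker lists, 1 stroma gene was called lower with voom sample weights, 1 with replicates 1 and 2 alone, and 1 stroma and 1 T, NK and B cell gene with GC correction added to these. The median log2 fold change of the 10 genes lay between 0.01 and 0.23, and each value was closer to 0.09 than the SD between libraries of 0.16. With the replicate block it was 0.09, and 0 of the 10 genes but 1 of all 17144 passed the threshold. Of 190 values of single genes, 164 kept their direction and 26 turned, to values of 0.13 or less in size. With replicates 1 and 2 alone Cdc45 was 0.07, Cdc6 0.03 and Mcm6 0.10, and with GC correction added to these libraries (chosen after the data were seen) 0.11, 0.07 and 0.13. Mcm6 was 0.02 with DESeq2 size factors and with DESeq2, 0.01 with GC correction, 0.02 with GC correction and replicate block, and 0.06 with voom sample weights, where Cdc45 was 0.0087. With sex in the model Cdc6 was 0.04 and Mcm4 -0.0035, and Mcm5 was -0.03 with library totals alone. With 1 library left out, ranges were -0.16 to 0.04 for Cdc45, -0.14 to 0.07 for Cdc6, -0.09 to 0.64 for Cdt1, -0.05 to 0.21 for Mcm4, -0.10 to 0.30 for Mcm5, -0.09 to 0.10 for Mcm6, 0.05 to 0.37 for Mcm2, 0.01 to 0.21 for Mcm3, 0.08 to 0.25 for Mcm7 and 0.02 to 0.25 for Mcm10. With sex in the model Cdt1 was 0.57, with an interval from 1.01-fold to 2.18-fold that does not cover equality, and an edgeR adjusted p of 0.785. The cause was not tested. With the length of the longest transcript the mean shares of Mcm2, Mcm3, Mcm4, Mcm6 and Mcm7 were 14.7%, 18%, 11.1%, 17.9% and 20.6%. With exon lengths they were 9.21%, 20.5%, 13.8%, 20.8% and 17.1%. The length of Mcm4 is the same in both settings, and those of the other ring genes are shorter with the longest transcript. Counting error was at most 3.6% of any value, below the spread over all libraries together.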
